A study of Sus scrofa with 8 samples.

Results

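The middle of a month-long primary culture was compared with its start and its end. Porcine oviductal epithelial cells line the tube in which the oocyte is fertilised, and the culture was sampled after 24h and after 7, 15 and 30 days. The 4 arrays of 7 and 15 days, called the middle times here, were set against the 4 arrays of 24h and 30 days, called the end times. These are all 8 arrays of the series, 2 for each of 4 times. The quantity tested for each gene was the mean of 7 and 15 days minus the mean of 24h and 30 days, in log2 units, and is called the contrast below.

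Epithelium was cut from the oviducts of cycling Landrace crossbred gilts of about 9 months of age (45 animals in all, from a commercial herd), digested with collagenase and trypsin, and grown in DMEM with fetal bovine serum and antibiotics. The labels call each RNA sample pooled but do not say how many animals it holds. No group had a genotype or a treatment of its own, so the groups differ by time in culture. The labels name the 2 arrays of a time biological replicates but not separate pools or dishes, so the p-values cover no more than the spread of these arrays, part of which may be technical. Each array, of the Affymetrix whole-transcript type, took 1 sample, for which 100 ng of total RNA had been amplified and biotin-labelled. The deposited values are on a log2 scale, and array medians lay between 4.69 and 4.77. Markers of the labelled epithelium did not share 1 course: EPCAM was 11.23 at 24h, 9.51 at 7 days, 7.85 at 15 days and 3.31 at 30 days, whereas KRT8 was 11.05 at 24h, 11.27 at 7 days, 11.85 at 15 days and 11.34 at 30 days and KRT19 was 11.44 at 24h, 11.68 at 7 days, 11.92 at 15 days and 11.28 at 30 days. KRT8, KRT19 and PKP2, given below, were chosen after their values were seen. The keratins were not typical of their list. Of its 25 measured genes of epithelial adhesion and identity, 22 were called lower at 30 days than at 24h and 1 higher. Over all genes the shares were 21.1% and 20.2%.

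Cells taken from a tissue can attach, re-enter the cell cycle and later slow again as the dish fills. Whether these cultures did so was not tested. Dividing cells switch on a shared set of genes in G2 and mitosis: cyclin B and CDK1 start mitosis, the kinetochore and spindle checkpoint hold it until chromosomes are attached, the anaphase-promoting complex ends it, and cytokinesis parts the daughters. DNA replication genes are used before that, in S phase. Interferon-stimulated genes form another coordinated set, which cells keep on while antiviral signalling lasts.

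Of 10901 named genes tested, 1501 (13.8%) were higher and 1001 (9.18%) were lower at the middle times (limma, Benjamini-Hochberg adjusted p under 0.05), and 257 (2.36%) and 73 (0.67%) of all genes were called and differed by at least 2-fold in those directions. Array values have no count behind them, and the number of arrays limits the precision. Leaving out either 15-day array reduced the lower calls to 607 (without replicate 1) and 589 (without replicate 2). A gene that differs at a single end can pass this contrast. Of the 1501 higher genes, the middle mean was also called above both ends for 381 (3.5% of all genes), above 24h and not 30 days for 870 (7.98%), and above 30 days and not 24h for 233 (2.14%). Of the 1001 lower genes the same counts were 105 (0.963%), 739 (6.78%) and 142 (1.3%). Over all genes the middle mean was called above 24h in 20.6% and below it in 18.5%, and above 30 days in 11.5% and below it in 9.35%. These comparisons share the middle arrays. Most calls therefore rest on the difference from 24h.

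A stricter rule asked that the contrast and each of the 4 differences, 7 and 15 days against 24h and 30 days, be called in the same direction. It left 165 genes (1.51%) higher and 17 genes (0.156%) lower at both middle times than at both end times. In all 165 and all 17 of them the 4 middle arrays lay beyond the 4 end arrays, which the rule itself favours; over all genes 4.83% had that order upward and 3.16% downward, and nothing is read from the difference. As a description of the size, the median contrast was 1.40 over the 165 and -1.17 over the 17. The count of 165 fell to 91 and 107 without 15-day replicates 1 and 2 and to 104 without 30-day replicate 2. The count of 17 fell to 4 and 3 without 15-day replicates 1 and 2, and to 9 and 8 without 30-day replicates 1 and 2. When the middle and the end arrays were treated as plain groups of 4, so that the change within each side counted as error, 88 genes were higher and 6 lower, and all of these were among the 165 and the 17.

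**Figure D1:**
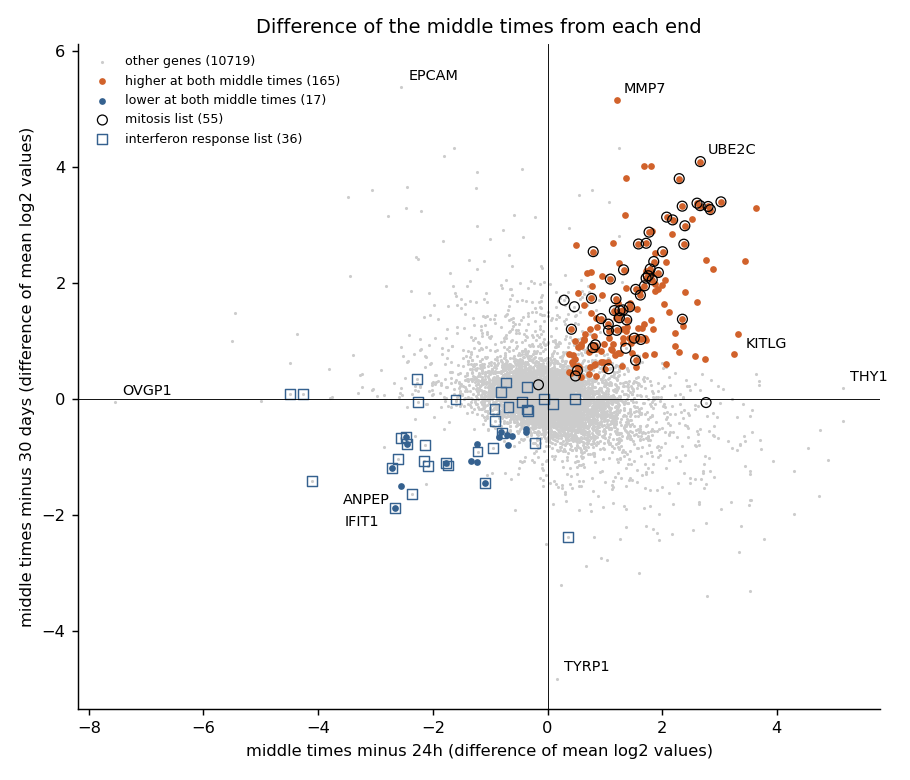
Each point is 1 of 10901 genes, plotted by the middle mean minus the 24h mean (x axis) and minus the 30-day mean (y axis), both in log2 units; both axes share the middle arrays. Orange points are the 165 genes higher, and blue points the 17 genes lower, at both middle times than at both ends. Open circles mark 55 mitosis genes and open squares 36 interferon response genes. UBE2C lies far from 0 on both axes, while OVGP1, THY1 and TYRP1 depart from 0 mainly along a single axis and EPCAM lies between its 2 ends.

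The genes of mitosis were the clearest group. Of 55 measured members of the list, 54 were higher and 0 lower at the middle times, and 48 of them were higher at both middle times than at both ends. Their median contrast was 1.67 log2 units, against -0.014 over all genes. The mean over the list was 4.75 and 5.10 at 24h, 6.67 and 6.40 at 7 days, 6.52 and 6.38 at 15 days, and 4.63 and 4.49 at 30 days. The 4 middle arrays thus stood well above the 4 end arrays, and the 24h pair was wider than the others. At 24h replicate 2 was above replicate 1 in 46 of 55 genes, against 5450 of 10901 over all genes. BUB3, a checkpoint protein, was the 1 member not called (0.042 ± 0.074). The count of 48 ranged from 36 (without 15-day replicate 1) to 46 when single arrays were left out, and 40 members passed when the times of each side were pooled. In bulk RNA, fewer dividing cells and less of this RNA per cell cannot be told apart.

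Among genes that end mitosis, UBE2C, the ubiquitin-conjugating enzyme of the anaphase-promoting complex, read 4.64 and 6.13 at 24h, 8.40 and 8.55 at 7 days, 7.74 and 7.50 at 15 days, and 4.15 and 3.77 at 30 days. The lowest middle array was above the highest end array, and both 30-day arrays were below both 24h arrays. Its contrast was 3.38 ± 0.26 (SE, limma adjusted p = 2.2e-05), a 10.4-fold difference. CDC20, an activator of the same complex, read 4.90 and 5.36 at 24h, 7.55 and 7.39 at 7 days, 7.51 and 7.46 at 15 days, and 4.14 and 4.17 at 30 days. The middle arrays were almost level with each other, and the contrast was 2.83 ± 0.11 (7.13-fold). PTTG1, the securin that this complex destroys, had a contrast of 2.52 ± 0.12. Shugoshin SGO1, which guards centromeric cohesion, had 1.94 ± 0.12, and ESPL1, the separase that cuts cohesin, had 0.88 ± 0.10. All 7 measured genes of this role were higher at both middle times than at both ends. BUB3, PTTG1, SGO1 and ESPL1 were chosen after their values were seen, as were the other mitosis genes named below apart from CENPF, DLGAP5, HMMR, TOP2A, TTK, KIF20A, KIF11, PBK and CKAP2.

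Of 11 measured kinetochore and checkpoint genes, 10 were higher and 9 passed the stricter rule. CENPF, a large kinetochore protein made in G2, read 4.78 and 5.72 at 24h, 8.61 and 8.39 at 7 days, 8.03 and 8.08 at 15 days, and 5.40 and 4.36 at 30 days. No middle array overlapped an end array, and its contrast was 3.21 ± 0.24 (9.25-fold). TTK, the kinase that starts checkpoint signalling, read 3.58 and 4.41 at 24h, 6.89 and 6.54 at 7 days, 6.72 and 6.46 at 15 days, and 3.31 and 3.34 at 30 days. Here the ends lay close together, with 30 days somewhat below 24h, and the contrast was 3.0 ± 0.17. The histone variant CENPA, which marks centromeres, had a contrast of 1.51 ± 0.084, and BUB1B, a checkpoint kinase, had 1.37 ± 0.12. KNTC1, which recruits checkpoint proteins, was 5.49 at 24h, 6.54 at 7 days, 6.03 at 15 days and 3.75 at 30 days, and so fell well below its starting level by the last time (30 days minus 24h, -1.74).

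All 9 measured kinesins were higher at the middle times and 7 passed the stricter rule, with contrasts from 1.12 to 2.99. KIF20A, a kinesin of the spindle midzone, read 4.87 and 5.78 at 24h, 8.04 and 7.87 at 7 days, 7.91 and 7.92 at 15 days, and 4.78 and 4.34 at 30 days. The middle arrays stayed within a narrow band above all end arrays, and its contrast was 2.99 ± 0.18. KIF11, the motor that pushes spindle poles apart, had a contrast of 2.63 ± 0.17. KIF23, a midzone motor, was the exception in time course, at 5.66 at 24h, 8.36 at 7 days, 8.49 at 15 days and 8.49 at 30 days: its contrast of 1.35 ± 0.21 came from 24h alone. Of 8 spindle assembly genes all were higher and 6 passed the stricter rule. DLGAP5, which stabilises spindle microtubules, had a contrast of 3.06 ± 0.15, HMMR, a spindle and hyaluronan-binding protein, had 3.05 ± 0.22, and CKAP2, a microtubule-associated protein, had 2.60 ± 0.15. AURKA, the spindle pole kinase, was called by the contrast (1.03 ± 0.11) and not by the stricter rule.

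The 9 measured cyclin, CDK1 and kinase genes all passed the stricter rule. CDK1, the kinase of mitotic entry, read 4.61 and 5.04 at 24h, 7.22 and 6.85 at 7 days, 6.72 and 6.53 at 15 days, and 4.23 and 4.37 at 30 days. Both 30-day arrays were below both 24h arrays, and no end array reached a middle array, with a contrast of 2.27 ± 0.12. CCNB2, a B-type cyclin, had 2.01 ± 0.12, and CCNA2, the cyclin of S phase and G2, had 1.86 ± 0.18 with 30 days still 0.98 log2 units above 24h. FOXM1, the transcription factor of this programme, had 1.34 ± 0.10, and PBK, a mitotic kinase, had 2.69 ± 0.15. TOP2A, the topoisomerase that untangles sister chromatids, read 5.22 and 6.11 at 24h, 7.96 and 7.78 at 7 days, 8.10 and 8.0 at 15 days, and 4.30 and 4.02 at 30 days. Both 30-day arrays fell below both 24h arrays, and the contrast was 3.05 ± 0.17 (8.26-fold). All 7 measured condensation and topology genes passed the stricter rule, among them the condensin subunit NCAPG (2.13 ± 0.14). Of 4 genes of the midzone and cytokinesis all were higher and 3 passed the stricter rule, with CEP55, which recruits the machinery of final abscission, at 1.94 ± 0.12.

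**Figure D2:**
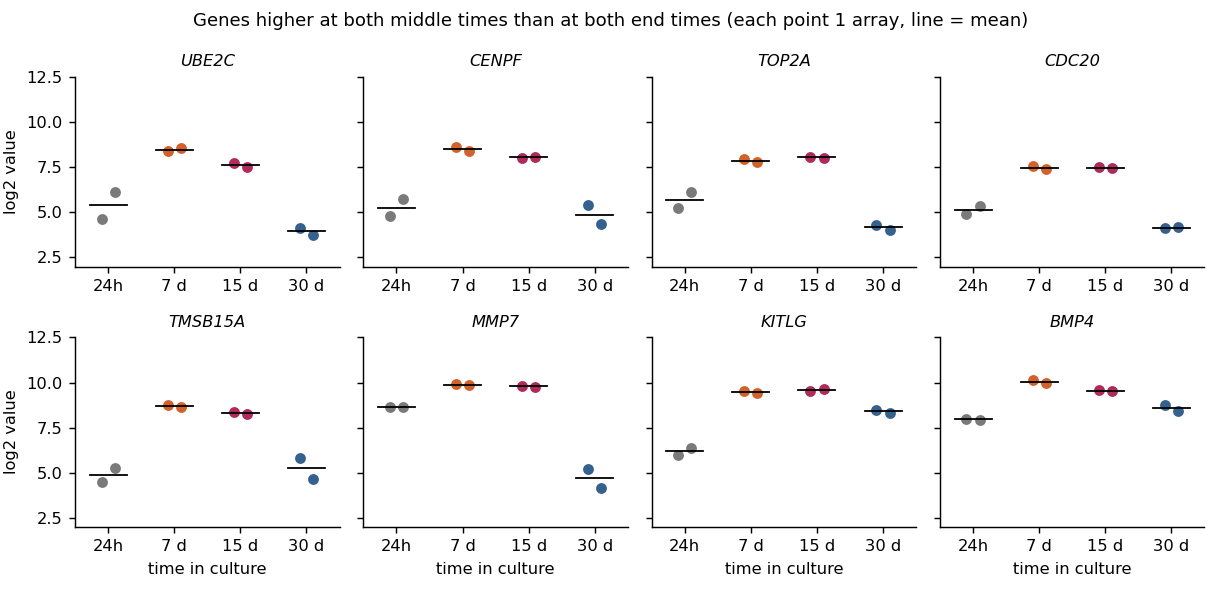
Log2 values (y axis) of 8 genes in each of 8 arrays, by time in culture (x axis). Each point is 1 array and each line the mean of the 2 arrays of a time. In all 8 panels the 4 middle arrays lie above the 4 end arrays; KITLG remains above its 24h level at 30 days and MMP7 falls far below it.

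DNA replication genes were set apart from 30 days rather than from 24h. Of 35 measured members, 18 were higher and 0 lower at the middle times, and 4 passed the stricter rule. Without single arrays the count of 4 became 1 (15-day replicate 1), 2 (7-day replicate 1 or 15-day replicate 2) or at most 3, and with each side as 1 group of 4 arrays 1 member passed. The median contrast was 0.35. Set against each end, the middle mean was above 24h for 6 members and below it for 12 (median -0.20), but above 30 days for 30 and below it for none (median 0.83). At 30 days 31 of 35 were below 24h, against 21.1% of all genes. The list mean was 6.18 and 6.09 at 24h, 6.13 and 5.91 at 7 days, 5.91 and 5.84 at 15 days, and 4.90 and 4.78 at 30 days, so that 24h and 7 days were close and only the last time stood low. DTL, part of a ubiquitin ligase that acts on replicating chromatin, read 7.55 and 7.52 at 24h, 7.14 and 6.96 at 7 days, 6.97 and 6.77 at 15 days, and 3.71 and 3.87 at 30 days. Its contrast of 1.30 ± 0.087 rests on the 30-day arrays. The 4 members that passed the stricter rule were MYBL2, a transcription factor shared by S phase and G2 (1.57 ± 0.073), CCNE2, a cyclin E (1.53 ± 0.14), and the repressors E2F8 (1.44 ± 0.12) and E2F7 (1.12 ± 0.14). E2F7 was chosen after its values were seen.

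Histone and chromatin genes were set apart from 30 days more than from 24h. Of 12 measured genes in that list, 9 were higher and 1 was lower (median 0.46), and 2 passed the stricter rule. The middle mean was above 24h for 4 members and below it for 3 (median 0.023). It was above 30 days for 8 and below it for 0 (median 0.54). ASF1B, a chaperone that feeds histones to replicating DNA, read 5.64 and 5.87 at 24h, 7.05 and 6.88 at 7 days, 6.93 and 6.74 at 15 days, and 4.55 and 3.89 at 30 days. The 30-day arrays were the lowest and all middle arrays were above both ends, with a contrast of 1.91 ± 0.14. HMGB2, a DNA-bending protein, had 1.13 ± 0.11. LMNB1, a lamin of the nuclear envelope, was 8.54 at 24h, 8.16 at 7 days, 8.33 at 15 days and 6.21 at 30 days, and H2AFZ, a histone variant, was 9.35 at 24h, 9.29 at 7 days, 8.97 at 15 days and 7.56 at 30 days. In both the low value at 30 days gave the contrast.

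The list of cell cycle inhibitors and brakes also holds D cyclins, CDKs and MYC, and as a whole gave no common direction. Of 18 measured genes, 4 were higher and 2 lower (median 0.11). Its measured CDK inhibitors, CDKN2B, CDKN2C and CDKN2D (contrast 0.31), were each called higher. CDKN1A, a CDK inhibitor counted with the p53 targets, was not called (0.11). CDKN2D and CDKN1A were chosen after their values were seen. CDKN2B, the CDK inhibitor p15, was 4.57 at 24h, 7.14 at 7 days, 6.97 at 15 days and 6.90 at 30 days and thus stayed up after 24h (contrast 1.32 ± 0.074). CDKN2C, a related inhibitor, had a contrast of 0.49 ± 0.11, CCND3, a D cyclin, had 0.56 ± 0.086, and MXD1, an antagonist of MYC, had -0.53 ± 0.13. Of 16 p53 targets, 9 were higher and 3 lower (median 0.43), and none passed the stricter rule; the 3 lower calls became 1 without 7-day replicate 2 or 15-day replicate 1. TP53INP1, a stress-induced protein, was 6.44 at 24h, 9.21 at 7 days, 9.48 at 15 days and 9.81 at 30 days. RRM2B, a ribonucleotide reductase subunit, was 5.58 at 24h, 8.07 at 7 days, 8.03 at 15 days and 8.33 at 30 days, and CCNG1, an atypical cyclin, was 8.99 at 24h, 10.86 at 7 days, 10.80 at 15 days and 10.99 at 30 days. These 3 genes were low at 24h and level or rising afterwards. SESN2, a sestrin, was the reverse, at 8.21 at 24h, 6.30 at 7 days, 6.14 at 15 days and 6.54 at 30 days.

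Of the 165 genes higher at both middle times, 48 (29.1%) belonged to the mitosis list, which held 55 of the 10901 genes tested. Another 96 belonged to none of the 40 lists. The share of all genes outside the lists was not counted, so nothing is read from the 96. By 30 days 45 of the 165 had fallen below their 24h level, 37 were still above it and 83 did not differ from it by the test. Between 7 and 15 days 26 fell, 7 rose and 132 were not called apart. Over all genes 21.1% were below and 20.2% above 24h at 30 days, and 6.72% fell and 6.58% rose between 7 and 15 days. TMSB15A, a thymosin that binds actin, read 4.50 and 5.26 at 24h, 8.78 and 8.64 at 7 days, 8.38 and 8.27 at 15 days, and 5.80 and 4.67 at 30 days. Its 4 middle arrays formed a tight set far above both ends, with the largest contrast of the 165, 3.46 ± 0.23 (SE, limma adjusted p = 8.7e-06), an 11.0-fold difference. MMP7, the epithelial matrilysin, read 8.61 and 8.64 at 24h, 9.90 and 9.84 at 7 days, 9.81 and 9.77 at 15 days, and 5.22 and 4.15 at 30 days. It was already high at 24h and the drop to 30 days made most of its contrast of 3.18 ± 0.19. SERPINA3-2, a serine protease inhibitor gene of a multigene family whose members may share probes, read 2.81 and 3.32 at 24h, 5.52 and 5.67 at 7 days, 7.42 and 7.44 at 15 days, and 4.25 and 4.02 at 30 days. The 15-day arrays were the highest and the contrast was 2.92 ± 0.12. SHCBP1, a protein of the midbody of dividing cells, had a contrast of 2.81 ± 0.16.

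Some genes of signals between cells were in this set, but few of each signalling list. The stricter rule called 2 of 36 EGF, FGF and PDGF genes, 2 of 36 Wnt genes and 2 of 35 TGF-beta and BMP genes higher. It called 1 of 35 cytokines and NF-kB targets, 0 of 15 Notch genes and 0 of 16 insulin-like growth factor genes higher. Over all genes the share was 1.51%. KITLG, the ligand of the receptor KIT, read 6.01 and 6.39 at 24h, 9.52 and 9.41 at 7 days, 9.54 and 9.63 at 15 days, and 8.47 and 8.33 at 30 days. Middle arrays were highest, 30 days was between, and 24h was lowest, with a contrast of 2.23 ± 0.10. AREG, amphiregulin, a ligand of the EGF receptor, read 5.18 and 5.58 at 24h, 6.96 and 6.62 at 7 days, 6.75 and 6.60 at 15 days, and 3.41 and 3.72 at 30 days, with a contrast of 2.26 ± 0.12. The related EREG, epiregulin, was 8.30 at 24h, 9.24 at 7 days, 8.12 at 15 days and 5.74 at 30 days and passed the contrast (1.66 ± 0.16) without passing the stricter rule. Of 36 measured EGF, FGF and PDGF family genes, 11 were higher and 4 lower (median 0.066), the latter including the receptor ERBB3 (-0.91 ± 0.090). The 4 lower calls became 2 without any array but 30-day replicate 2. BMP4, a bone morphogenetic protein, read 8.0 and 7.92 at 24h, 10.12 and 9.99 at 7 days, 9.56 and 9.54 at 15 days, and 8.77 and 8.41 at 30 days. It was highest at 7 days, and all middle arrays exceeded all end arrays (contrast 1.53 ± 0.095). WNT5B, a noncanonical Wnt ligand, was 4.53 at 24h, 6.95 at 7 days, 6.57 at 15 days and 5.85 at 30 days (contrast 1.57 ± 0.085), and TCF7, a transcription factor of Wnt signalling, was 7.91 at 24h, 8.66 at 7 days, 8.42 at 15 days and 7.53 at 30 days (contrast 0.82 ± 0.094). Neither passed the stricter rule without 15-day replicate 1.

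Of 36 Wnt genes, 9 were higher and 0 lower (median -0.0033). SFRP1, a secreted Wnt inhibitor, had a contrast of 1.31 ± 0.12, and DKK3, of the dickkopf family, was 6.24 at 24h, 8.18 at 7 days, 9.47 at 15 days and 9.64 at 30 days, a lasting increase after 24h. Of 35 genes of TGF-beta and BMP signalling, 13 were higher and 3 lower (median 0.26). CHRDL1, a BMP antagonist, was 4.20 at 24h, 7.54 at 7 days, 10.34 at 15 days and 10.62 at 30 days, FST, the activin antagonist follistatin, was 9.80 at 24h, 7.04 at 7 days, 6.07 at 15 days and 6.13 at 30 days, and LTBP2, of the latent TGF-beta binding proteins, was 5.31 at 24h, 8.19 at 7 days, 9.51 at 15 days and 10.09 at 30 days. In these 3 genes the contrast came from 24h. Of 15 Hippo and stretch targets, 10 were higher and 1 was lower (median 0.52). NT5E, a surface nucleotidase, was 3.63 at 24h, 4.38 at 7 days, 4.74 at 15 days and 3.73 at 30 days, and passed the stricter rule, though not without 30-day replicate 2. ANKRD1, a stretch-responsive ankyrin protein, was 3.03 at 24h, 7.45 at 7 days, 5.89 at 15 days and 6.25 at 30 days, with a wide error on its contrast (2.03 ± 0.35). VGLL3, a cofactor of TEAD factors, had a contrast of 0.78 ± 0.12, and CTGF, a matricellular target of YAP, had 0.69 ± 0.094. Notch genes were near the background: 2 of 15 higher and 1 lower (median 0.028), with the ligand JAG1 at 0.57 ± 0.089, the coactivator MAML1 at -0.53 ± 0.12 and DTX4 at 0.34 ± 0.086.

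Some further genes of the 165 were chosen after their values were seen. CFTR, the chloride channel of fluid-secreting epithelia, read 5.89 and 6.18 at 24h, 8.66 and 8.55 at 7 days, 8.62 and 8.61 at 15 days, and 8.13 and 7.63 at 30 days, and its contrast was 1.65 ± 0.12. All 6 later arrays lay above 24h and the middle ones were the highest. PTGES, a prostaglandin E synthase, was 6.13 at 24h, 8.32 at 7 days, 7.11 at 15 days and 6.50 at 30 days (contrast 1.40 ± 0.083), with a peak at 7 days. RASGRP1, an activator of RAS, was 3.32 at 24h, 6.51 at 7 days, 5.64 at 15 days and 3.69 at 30 days (contrast 2.57 ± 0.11). GAS2L3, which links actin and microtubules in dividing cells, was 4.29 at 24h, 7.25 at 7 days, 7.11 at 15 days and 4.94 at 30 days (contrast 2.56 ± 0.15). ANOS1, the matrix protein anosmin, was 5.11 at 24h, 8.01 at 7 days, 6.56 at 15 days and 4.45 at 30 days (contrast 2.50 ± 0.15). PCLAF, a partner of the replication clamp, was 6.77 at 24h, 8.03 at 7 days, 8.26 at 15 days and 4.34 at 30 days (contrast 2.59 ± 0.28). FSCN1, the actin-bundling fascin, was 4.66 at 24h, 7.87 at 7 days, 7.97 at 15 days and 7.14 at 30 days (contrast 2.02 ± 0.084). Ends differed among them: PCLAF ended far below its start and FSCN1 far above it.

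The genes that were lower at both middle times were fewer and held several interferon-stimulated genes. IFIT1, which binds foreign RNA, read 9.98 and 9.66 at 24h, 6.51 and 5.99 at 7 days, 8.06 and 8.09 at 15 days, and 9.12 and 8.98 at 30 days. The lowest values were at 7 days, 15 days lay between, and both end pairs were above every middle array. Its contrast was -2.27 ± 0.12 (SE, limma adjusted p = 3.5e-06), so that the ends stood 4.83-fold above the middle. MX2, a dynamin-like antiviral GTPase, read 10.30 and 9.73 at 24h, 6.82 and 7.04 at 7 days, 7.68 and 7.69 at 15 days, and 8.62 and 8.37 at 30 days. It dipped at 7 days and recovered in part by 30 days, with a contrast of -1.95 ± 0.13. ISG12(A), a small interferon-induced membrane protein, read 8.31 and 8.39 at 24h, 6.55 and 6.64 at 7 days, 7.95 and 7.90 at 15 days, and 8.72 and 8.69 at 30 days. Its 30-day arrays were above its 24h arrays, unlike those of IFIT1 and MX2, and the contrast was -1.27 ± 0.074. IFIT3, a partner of IFIT1, had a contrast of -1.61 ± 0.096, IFIH1, the RNA sensor MDA5, had -1.44 ± 0.10, and DHX58, the related helicase LGP2, had -1.57 ± 0.10.

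Of 36 measured interferon response genes, 0 were higher and 27 lower at the middle times, 6 of them by the stricter rule. The median contrast was -1.04. The middle mean was below 24h for 29 members (median -1.41) and below 30 days for 19 (median -0.63). From 7 to 15 days 16 members rose and none fell, against 6.58% and 6.72% of all genes. At 30 days 24 were below and 4 above their 24h level, against 21.1% and 20.2% of all genes. The list mean was 7.88 and 7.46 at 24h, 5.85 and 5.74 at 7 days, 6.50 and 6.41 at 15 days, and 6.81 and 6.65 at 30 days. RSAD2, the antiviral enzyme viperin, read 9.70 and 9.31 at 24h, 4.87 and 4.49 at 7 days, 6.24 and 6.02 at 15 days, and 7.03 and 6.60 at 30 days, with the largest negative contrast of the list (-2.76 ± 0.14), and missed the stricter rule because 15 and 30 days did not differ by the test. CD274, the checkpoint ligand PD-L1, was 7.73 at 24h, 3.23 at 7 days, 3.24 at 15 days and 3.15 at 30 days, and OASL was 8.19 at 24h, 3.94 at 7 days, 3.90 at 15 days and 3.85 at 30 days: both stayed low after 24h. The count of 27 lay between 24 and 29 when single arrays were left out, but the 6 genes of the stricter rule became 1 without either 15-day array or without 30-day replicate 1, and 4 without 30-day replicate 2. With the times of each side pooled into groups of 4 arrays, 0 interferon genes passed limma's test; that model counts the change from 7 to 15 days and from 24h to 30 days as error.

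**Figure D3:**
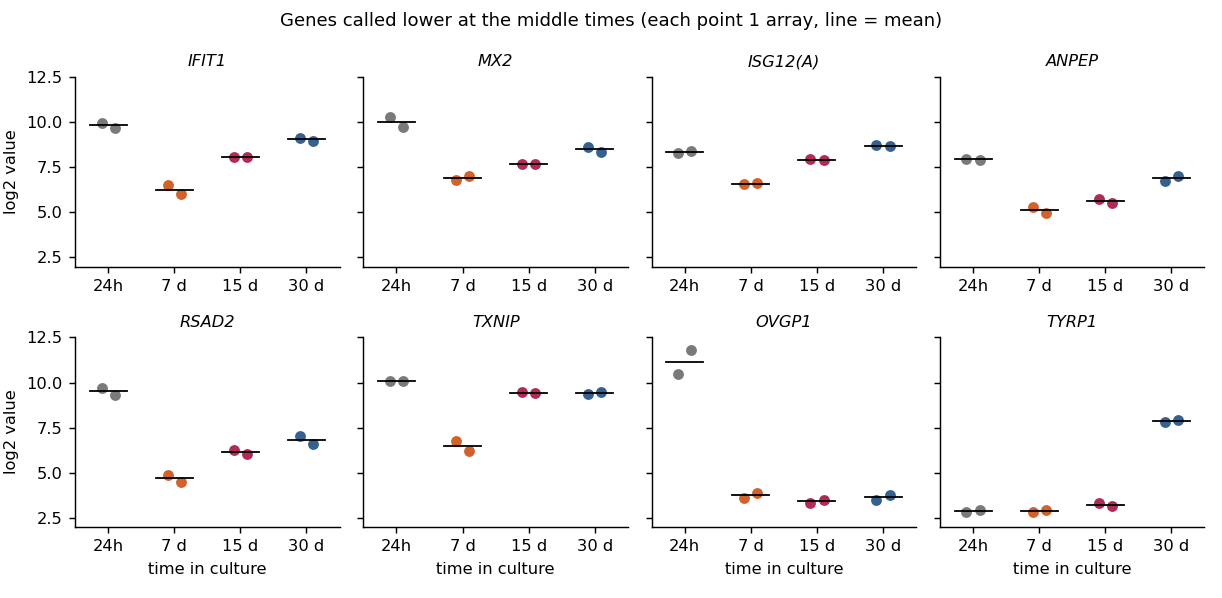
Log2 values (y axis) of 8 genes called lower by the contrast, in each of 8 arrays, by time in culture (x axis). Each point is 1 array and each line the mean of the 2 arrays of a time. IFIT1, MX2, ISG12(A) and ANPEP were below both ends at both middle times; RSAD2 and TXNIP were lowest at 7 days; OVGP1 was high at 24h alone and TYRP1 at 30 days alone.

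Outside the interferon genes, ANPEP, a surface aminopeptidase, read 7.95 and 7.93 at 24h, 5.29 and 4.98 at 7 days, 5.73 and 5.53 at 15 days, and 6.77 and 7.01 at 30 days. Every middle array was below every end array, and the contrast was -2.03 ± 0.10, the ends being 4.08-fold above the middle. GVIN1, a large GTPase of the interferon-inducible family that is not in the list, had a contrast of -1.17 ± 0.11. DNAJA4, a cochaperone, had -1.01 ± 0.093, and C4H8orf34 had -1.21 ± 0.096. BACH1, a repressor of antioxidant genes, read 8.05 and 7.98 at 24h, 7.48 and 7.48 at 7 days, 7.32 and 7.34 at 15 days, and 8.08 and 8.02 at 30 days. Its range was small, with a contrast of -0.63 ± 0.073. The sides did not overlap, as in all 17 genes that passed this rule, which favours that order. PIR, the nuclear protein pirin, had -0.76 ± 0.084. MAB21L3 (-0.75 ± 0.12), ZNF432 (-0.69 ± 0.079) and HINT3 (-0.66 ± 0.11) completed the 15 largest.

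The other immune lists had fewer calls. Of 14 genes of antigen presentation, 2 were higher and 1 was lower (median -0.044), SLA-DRA, an MHC class II chain, at 7.30 at 24h, 7.39 at 7 days, 6.35 at 15 days and 4.09 at 30 days. TAPBP, the loading chaperone tapasin, had a contrast of 0.39 ± 0.084, and B2M, the light chain of MHC class I, had -0.25 ± 0.072. Of 15 complement genes, 2 were higher and 4 lower (median -0.067). CD55, a complement inhibitor on the cell surface, was 9.55 at 24h, 8.37 at 7 days, 8.98 at 15 days and 9.33 at 30 days, with a middle mean called below each end. C4A was 5.45 at 24h, 3.32 at 7 days, 3.36 at 15 days and 3.43 at 30 days, and the C1 inhibitor SERPING1 was 7.19 at 24h, 6.57 at 7 days, 8.41 at 15 days and 9.10 at 30 days. CFD, the protease factor D, had a contrast of 0.68 ± 0.097. Of 35 cytokines and NF-kB targets, 9 were higher and 3 lower (median 0.088). IL1A was 7.48 at 24h, 8.71 at 7 days, 7.29 at 15 days and 6.14 at 30 days, with a 7-day peak, and IL18 was 6.86 at 24h, 8.80 at 7 days, 8.96 at 15 days and 8.35 at 30 days. VCAM1, an adhesion molecule for leukocytes, was 7.79 at 24h, 10.45 at 7 days, 11.15 at 15 days and 10.87 at 30 days, and the chemokine CXCL8 was 11.07 at 24h, 10.59 at 7 days, 9.07 at 15 days and 6.20 at 30 days. In the latter 2 genes the contrast came from opposite ends, 24h for VCAM1 and 30 days for CXCL8.

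**Figure D4:**
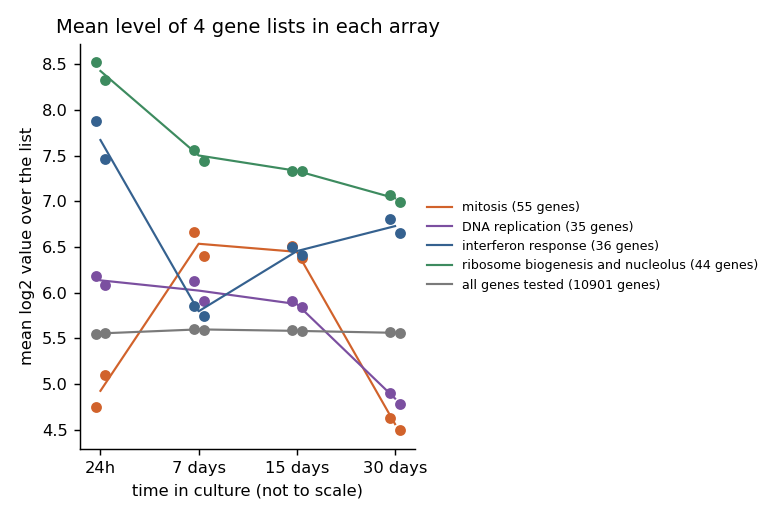
Mean log2 value over the measured members of 4 lists and over all 10901 genes (y axis) in each array, by time in culture (x axis). Points are arrays and lines join the means of the 2 arrays of a time. The mitosis mean is high at 7 and 15 days alone, the DNA replication mean drops after 15 days, the interferon mean is lowest at 7 days, and the ribosome biogenesis mean falls from each time to the next.

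Ribosome biogenesis genes were low at the middle times against 24h and high against 30 days. Of 44 measured ribosome biogenesis genes, 0 were higher and 23 lower (median -0.33). None passed the stricter rule. The middle mean was below 24h for 42 of them (median -1.12) and above 30 days for 22 (median 0.34). RRP12, a ribosome export factor, was 8.03 at 24h, 6.63 at 7 days, 6.36 at 15 days and 6.42 at 30 days, UTP20, of the small subunit processome, was 8.68 at 24h, 7.23 at 7 days, 7.02 at 15 days and 6.84 at 30 days, NOC3L, of the nucleolar complex, was 7.65 at 24h, 6.46 at 7 days, 6.58 at 15 days and 6.55 at 30 days, and NOP56, a core snoRNP protein, was 10.59 at 24h, 9.10 at 7 days, 9.23 at 15 days and 8.85 at 30 days. The largest step in each was the 1 after 24h. Of 40 cytosolic ribosomal protein genes, 1 was higher and 0 lower (median 0.074); the called member, RPL10, had a contrast of 0.87 ± 0.19, and ribosomal protein genes have many pseudogenes that may share probes. Of 36 respiratory chain genes, 11 were higher and 0 lower (median 0.18). NDUFA2 and NDUFA12, both of complex I, had contrasts of 0.88 ± 0.085 and 0.40 ± 0.079. COX6C, of cytochrome oxidase, had 0.57 ± 0.078, and SDHD, of complex II, had 0.45 ± 0.11. The 11 calls of the list became 7 without 7-day replicate 2 and 6 without 15-day replicate 1 or 30-day replicate 2. For these 4 genes the middle mean was called above 24h and not above 30 days.

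Immediate early and heat shock genes were lower mainly against 24h, where 16 of 22 had a middle mean called lower and 1 higher, while 7 were called above 30 days and 0 below. Of these 22 genes, 3 were higher and 11 lower (median -0.24). The 11 became 7 without 15-day replicate 1 and 6 without 15-day replicate 2. FOSL1, an AP-1 subunit, was 9.91 at 24h, 7.85 at 7 days, 6.94 at 15 days and 6.65 at 30 days, and HSPH1, a heat shock protein, was 10.28 at 24h, 8.90 at 7 days, 8.78 at 15 days and 8.51 at 30 days. ATF3 was 8.86 at 24h, 9.56 at 7 days, 8.43 at 15 days and 7.63 at 30 days and IER3 was 10.07 at 24h, 10.37 at 7 days, 10.11 at 15 days and 8.80 at 30 days, both early response genes with their lowest value at 30 days. Of 28 genes of the unfolded protein and amino acid stress responses, 5 were higher and 9 lower (median -0.054). The 5 higher calls were 1 to 3 whichever array was left out, with 1 without either 15-day array or 30-day replicate 2, 2 without 7-day replicate 2 and 3 otherwise. CHAC1, a glutathione-degrading enzyme, was 8.10 at 24h, 6.31 at 7 days, 5.27 at 15 days and 6.15 at 30 days, and ERN1, the sensor IRE1, was 8.04 at 24h, 6.43 at 7 days, 6.40 at 15 days and 6.34 at 30 days. VLDLR, a lipoprotein receptor, rose after 24h, at 5.84 at 24h, 9.32 at 7 days, 9.75 at 15 days and 10.25 at 30 days. Of 26 antioxidant genes, 4 were higher and 7 lower (median -0.13), and the 4 became 2 without 15-day replicate 1. TXNIP, which inhibits thioredoxin, read 10.07 and 10.07 at 24h, 6.74 and 6.20 at 7 days, 9.46 and 9.42 at 15 days, and 9.36 and 9.48 at 30 days. The 7-day pair alone was low, and the contrast of -1.79 ± 0.12 rests on it. PRDX6, a peroxiredoxin, was 9.17 at 24h, 10.24 at 7 days, 9.72 at 15 days and 8.89 at 30 days and passed the stricter rule (contrast 0.95 ± 0.074). GPX2, a glutathione peroxidase of epithelia, was 8.36 at 24h, 3.99 at 7 days, 3.76 at 15 days and 3.25 at 30 days, and CAT, catalase, was 6.97 at 24h, 8.74 at 7 days, 9.12 at 15 days and 8.97 at 30 days.

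Genes of the hypoxia and glycolysis list were more often higher than lower. Of 24 measured members, 12 were higher and 1 was lower (median 0.32), and 1 passed the stricter rule. The list joins glycolytic enzymes with other hypoxia genes, which were not counted apart. The middle mean was above 24h for 12 members and above 30 days for 12. LDHA, lactate dehydrogenase, read 10.37 and 10.34 at 24h, 11.39 and 11.25 at 7 days, 10.72 and 10.65 at 15 days, and 9.96 and 9.82 at 30 days. It was highest at 7 days, above both ends at both middle times, and had a contrast of 0.88 ± 0.079; it did not pass the stricter rule without any 1 of the 24h, 15-day or 30-day arrays. PFKFB4, a regulator of phosphofructokinase, had a contrast of 1.05 ± 0.094 and PDK1, which restrains pyruvate oxidation, had 0.93 ± 0.12. ADM, the peptide adrenomedullin, was the lower member (-0.89 ± 0.10). From 7 to 15 days 13 members fell and 1 rose, against 6.72% and 6.58% of all genes. Of 31 genes of fatty acid metabolism, 12 were higher and 1 was lower (median 0.17). ACSL4, an acyl-CoA synthetase, was 9.65 at 24h, 10.71 at 7 days, 9.58 at 15 days and 9.18 at 30 days, with a middle mean called above each end, although 15 days and 24h did not differ by the test. ACACA, the acetyl-CoA carboxylase, had a contrast of 0.93 ± 0.14, FADS2, a desaturase, had 0.81 ± 0.098, and PLIN2, a coat protein of lipid droplets, had -0.96 ± 0.078. From 7 to 15 days 14 of 16 genes of cholesterol synthesis and uptake fell, against 6.72% of all genes. By the contrast 5 of the 16 were higher and 4 lower (median -0.043). The counts became 2 higher and 2 lower without 15-day replicate 1 and 3 and 2 without 15-day replicate 2, and the higher calls were 3 without either 30-day array. TM7SF2, a sterol reductase, was 6.99 at 24h, 9.90 at 7 days, 8.82 at 15 days and 9.55 at 30 days, and STARD4, a sterol carrier, was 5.80 at 24h, 7.74 at 7 days, 5.64 at 15 days and 6.56 at 30 days. ABCA1, a cholesterol exporter, had a contrast of 0.88 ± 0.12, and MYLIP, which degrades the LDL receptor, had -0.59 ± 0.077. Of 31 lysosome and autophagy genes, 13 were higher and 3 lower (median 0.24). WIPI1, of autophagosome formation, had a contrast of 1.13 ± 0.092, and the lysosomal enzymes GUSB, MANBA and CTSZ had 0.95 ± 0.079, 0.93 ± 0.11 and 0.81 ± 0.24. At 30 days 26 of 31 were above 24h, against 20.2% of all genes.

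Matrix and mesenchymal genes were set apart mainly from 24h. Of 26 genes of collagens and their processing, 13 were higher and 1 was lower (median 0.32). The middle mean was above 24h for 20 of them and below 30 days for 11. LOX, which crosslinks collagen, read 5.01 and 5.76 at 24h, 10.23 and 10.26 at 7 days, 10.83 and 10.85 at 15 days, and 10.99 and 10.86 at 30 days, so that the 3 later times were nearly level. COL1A2 was 5.05 at 24h, 9.01 at 7 days, 10.86 at 15 days and 10.99 at 30 days, COL1A1 was 8.02 at 24h, 11.04 at 7 days, 12.14 at 15 days and 12.15 at 30 days, and PLOD2, a lysyl hydroxylase, was 5.73 at 24h, 8.37 at 7 days, 9.38 at 15 days and 9.59 at 30 days. COL12A1 and LOXL4, chosen after their values were seen, were the 2 members that passed the stricter rule, with contrasts of 0.97 ± 0.099 and 0.83 ± 0.076. The count of 2 became 1 without any 1 of 5 arrays. These were 24h replicate 2, both 7-day arrays, 15-day replicate 2 and 30-day replicate 2. Of 24 fibroblast and mesenchyme genes, 14 were higher and 1 was lower (median 0.44). THY1, a surface glycoprotein of fibroblasts, read 4.03 and 3.73 at 24h, 9.09 and 9.21 at 7 days, 8.90 and 8.92 at 15 days, and 9.04 and 8.65 at 30 days. Its contrast of 2.67 ± 0.11 came from 24h. MFAP5, a microfibril protein, had 1.68 ± 0.12, FN1, fibronectin, had 1.61 ± 0.14, and TNC, tenascin, had 1.32 ± 0.10. Of 14 smooth muscle and myofibroblast genes, 8 were higher and 1 was lower (median 0.44). TPM2, a tropomyosin, had a contrast of 1.59 ± 0.15, MYL9, a myosin light chain, had 1.32 ± 0.098, MYLK, its kinase, had 1.07 ± 0.10, and PLN, phospholamban, had -1.49 ± 0.16 with its high value at 30 days.

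Of 24 matrix protease and plasminogen genes, 11 were higher and 2 lower (median 0.16). SERPINE2, the inhibitor protease nexin, read 6.90 and 7.01 at 24h, 9.38 and 9.22 at 7 days, 8.77 and 8.60 at 15 days, and 7.58 and 7.14 at 30 days. It was highest at 7 days and above both ends at both middle times, with a contrast of 1.83 ± 0.11. MMP9, a gelatinase, read 6.52 and 8.70 at 24h, 9.36 and 9.46 at 7 days, 7.90 and 8.0 at 15 days, and 4.94 and 5.63 at 30 days. The 7-day pair was highest, the 15-day pair overlapped 24h, and the error of its contrast was wide (2.23 ± 0.38). NOV, a matricellular protein of the CCN family, read 6.57 and 7.06 at 24h, 8.99 and 9.0 at 7 days, 7.19 and 7.07 at 15 days, and 3.83 and 3.63 at 30 days. It had the largest contrast among genes that missed the stricter rule (2.79 ± 0.11), because 15 days and 24h did not differ by the test. LIPG, an endothelial lipase, was 5.03 at 24h, 10.23 at 7 days, 9.33 at 15 days and 10.32 at 30 days, with a contrast set by 24h (2.10 ± 0.094). SERPINB2, an inhibitor of plasminogen activators, was 10.17 at 24h, 5.57 at 7 days, 3.87 at 15 days and 3.24 at 30 days (contrast -1.99 ± 0.11).

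Most epithelial genes were lower at 30 days than at 24h (22 of 25, with 1 higher), and most had a middle mean between the ends. Of 25 genes of epithelial adhesion and identity, 11 were higher and 2 lower (median 0.21), and none passed the stricter rule; the 11 became 7 without 15-day replicate 2, and the 2 became 1 without any array but 24h replicate 1 and 7-day replicate 2. The middle mean was below 24h for 19 members (median -1.08) and above 30 days for 21 (median 1.53). EPCAM, an adhesion molecule of epithelia, read 11.22 and 11.24 at 24h, 9.64 and 9.38 at 7 days, 7.69 and 8.0 at 15 days, and 3.23 and 3.38 at 30 days. It fell at each step, most at the last, which makes its contrast positive (1.41 ± 0.10). SPINT1, a protease inhibitor of epithelia, was 10.53 at 24h, 9.64 at 7 days, 8.17 at 15 days and 4.57 at 30 days, MAL2, of apical transport, was 10.09 at 24h, 10.70 at 7 days, 9.05 at 15 days and 6.74 at 30 days, and KRT18, a simple keratin, was 9.12 at 24h, 9.30 at 7 days, 9.24 at 15 days and 7.43 at 30 days. At 30 days EPCAM lay at the 17.9th percentile of all genes, and KRT19 at the 99.5th. The keratins KRT8 and KRT19 were highest at 15 days (11.85 and 11.92) and lower at 30 days (11.34 and 11.28). Their contrasts were 0.36 ± 0.10 and 0.44 ± 0.11, and 24h and 30 days did not differ by the test (limma adjusted p = 0.15 and 0.47). PKP2, a desmosomal plakophilin, was 5.81 at 24h, 6.92 at 7 days, 7.10 at 15 days and 7.07 at 30 days. Of 16 genes of oviductal secretory cells, 8 were higher and 3 lower (median 0.36). OVGP1, the oviductal glycoprotein, read 10.46 and 11.78 at 24h, 3.60 and 3.88 at 7 days, 3.31 and 3.51 at 15 days, and 3.51 and 3.76 at 30 days. It was high at 24h alone, with the largest negative contrast of all genes (-3.80 ± 0.24). MUC4, a membrane mucin, was 11.09 at 24h, 10.25 at 7 days, 8.22 at 15 days and 3.64 at 30 days, MUC20 was 6.16 at 24h, 7.08 at 7 days, 5.54 at 15 days and 4.73 at 30 days, and WFDC2, a secreted whey acidic protein, was 9.25 at 24h, 9.41 at 7 days, 8.97 at 15 days and 7.75 at 30 days.

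Of 18 squamous and basal keratinocyte genes, 6 were higher and 4 lower (median 0.079). ITGB6, an epithelial integrin subunit, was 7.06 at 24h, 8.19 at 7 days, 7.04 at 15 days and 4.09 at 30 days (contrast 2.04 ± 0.10), and FGFBP1, which binds fibroblast growth factors, was 10.55 at 24h, 5.74 at 7 days, 4.34 at 15 days and 4.05 at 30 days (contrast -2.26 ± 0.15). Of 29 motile cilia genes, 1 was higher and 7 were lower (median -0.15), and the 7 became 4 without either 15-day array. The higher member was MYB (0.66), a transcription factor that is also in the DNA replication list. MYB was chosen after its values were seen. SPAG6 was 5.20 at 24h, 3.14 at 7 days, 3.22 at 15 days and 3.12 at 30 days, DNAH7 was 5.42 at 24h, 3.50 at 7 days, 3.51 at 15 days and 3.19 at 30 days and ARMC4 was 5.63 at 24h, 3.72 at 7 days, 3.53 at 15 days and 3.33 at 30 days, all of them axonemal genes that were above their later level at 24h. MAK, a ciliary kinase, was 3.95 at 24h, 3.21 at 7 days, 3.89 at 15 days and 4.62 at 30 days. GCNT3, an enzyme of mucin glycosylation, was 7.82 at 24h, 2.90 at 7 days, 2.72 at 15 days and 2.85 at 30 days and had the third most negative contrast outside the stricter rule (-2.52 ± 0.098).

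Counts for other cell types varied, from the fibroblast and smooth muscle lists above to none of the red blood cell genes. Of 12 endothelial genes, 0 were higher and 2 lower (median -0.054). The called members were CD34 (-1.0 ± 0.11) and KDR (-0.71 ± 0.17), and the summed linear level of the list was 234 to 254 over the middle arrays, 246 to 317 at 24h and 201 to 221 at 30 days. The KDR call was lost when a gene's probe sets were averaged (contrast -0.29), and without 7-day replicate 1, 15-day replicate 2 or 30-day replicate 1. Of 33 leukocyte genes, 2 were higher and 0 lower (median -0.0018), VAV1 (0.83 ± 0.11) and the chemokine receptor CXCR4 (0.81 ± 0.11). That count rests on 24h replicate 2, without which 9 were higher and 2 lower. The list mean was 4.55 and 5.12 at 24h, 4.85 and 4.81 at 7 days, 4.37 and 4.39 at 15 days, and 4.21 and 4.21 at 30 days. Replicate 2 was above replicate 1 at 24h in 24 of 33 genes, against 5450 of 10901 over all genes. The summed level was 1924 to 2547 over the middle arrays, 2035 to 2824 at 24h and 1722 to 1776 at 30 days, of which CD79A (9.93 at 24h, 10.19 at 7 days, 10.04 at 15 days and 9.93 at 30 days) made 36.1% to 56.6%. Without CD79A the sum was 874 to 1418 over the middle arrays, 1101 to 1804 at 24h and 770 to 782 at 30 days. At 30 days 16 of the 33 genes were below 24h and none above, against 21.1% and 20.2% of all genes. Among the 16 was VAV1, at 7.08 at 24h, 7.05 at 7 days, 5.86 at 15 days and 4.17 at 30 days. CD79A was chosen after its values were seen. Of 7 mesothelial genes, 2 were higher and 0 lower (median -0.0044), BNC1 (0.52 ± 0.10) and UPK1B (0.47 ± 0.098), with a summed level of 1652 to 2735 over the middle arrays, 1238 to 1453 at 24h and 1974 to 2260 at 30 days. Of 7 red blood cell genes, 0 were higher and 0 lower (median -0.044), with a summed level of 115 to 167 over the middle arrays, 104 to 136 at 24h and 182 to 184 at 30 days. The fibroblast list summed to 10705 to 17647 over the middle arrays, 3788 to 4510 at 24h and 18173 to 20513 at 30 days, the smooth muscle list to 8356 to 10766 over the middle arrays, 3244 to 4068 at 24h and 11695 to 11978 at 30 days, the epithelial list to 13687 to 17290 over the middle arrays, 21876 to 23775 at 24h and 7453 to 8813 at 30 days and the cilia list to 491 to 522 over the middle arrays, 664 to 778 at 24h and 481 to 484 at 30 days. The middle ranges of these 4 lists lay between those of 24h and 30 days. The part of changing cell types in the results was not tested. Array values have no true 0, so no marker can be called absent.

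Of 16 pigment genes, 2 were higher and 3 lower (median -0.016). TYRP1, a melanosomal enzyme, read 2.83 and 2.93 at 24h, 2.79 and 2.91 at 7 days, 3.32 and 3.14 at 15 days, and 7.80 and 7.93 at 30 days. It was high at 30 days alone, and the contrast was -2.33 ± 0.084. OCA2, a melanosomal channel, was 3.70 at 24h, 4.06 at 7 days, 5.18 at 15 days and 7.37 at 30 days, EDNRB, an endothelin receptor, was 8.56 at 24h, 7.12 at 7 days, 5.07 at 15 days and 2.81 at 30 days, and RAB38, a melanosome GTPase, was 3.62 at 24h, 3.95 at 7 days, 4.06 at 15 days and 3.58 at 30 days. TYR, the enzyme that starts melanin synthesis, stayed at 2.95 at 24h, 2.94 at 7 days, 3.11 at 15 days and 3.15 at 30 days, and was chosen after its values were seen. The EDNRB and RAB38 calls were marginal (limma adjusted p = 0.035 and 0.038) and were lost, for EDNRB, without any 1 of 5 arrays, and for RAB38, without any 1 of 7 (all but 24h replicate 1). EDNRB also changed sign, to -0.59, in a contrast built to ignore a straight line in days. Of 14 receptors of sex steroids and pituitary hormones and their partners, 2 were higher and 4 lower (median -0.13). ESR1, the oestrogen receptor, was 8.48 at 24h, 6.87 at 7 days, 8.12 at 15 days and 7.40 at 30 days, PGR, the progesterone receptor, was 6.98 at 24h, 5.90 at 7 days, 6.0 at 15 days and 5.99 at 30 days, FKBP4, a chaperone of steroid receptors, was 10.11 at 24h, 8.33 at 7 days, 8.33 at 15 days and 7.74 at 30 days, and PRLR, the prolactin receptor, rose at each step, at 3.85 at 24h, 6.88 at 7 days, 8.37 at 15 days and 10.04 at 30 days. Of 16 insulin-like growth factor genes, 3 were higher and 2 lower (median -0.098). IGFBP7, a binding protein, had a contrast of 1.21 ± 0.13, PAPPA, a protease of binding proteins, had 0.81 ± 0.11, IGFBP5 had 0.39 ± 0.096, and the insulin receptor substrate IRS1 had -0.81 ± 0.087. Of 13 circadian clock genes, 4 were higher and 2 lower (median -0.056), the 4 becoming 2 without 15-day replicate 1, with BHLHE41 at 0.52 ± 0.080, RORA at 0.46 ± 0.11, CRY1 at -0.46 ± 0.10 and NR1D1, a nuclear receptor of the clock, at 7.12 at 24h, 6.91 at 7 days, 6.74 at 15 days and 7.42 at 30 days.

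**Figure D5:**
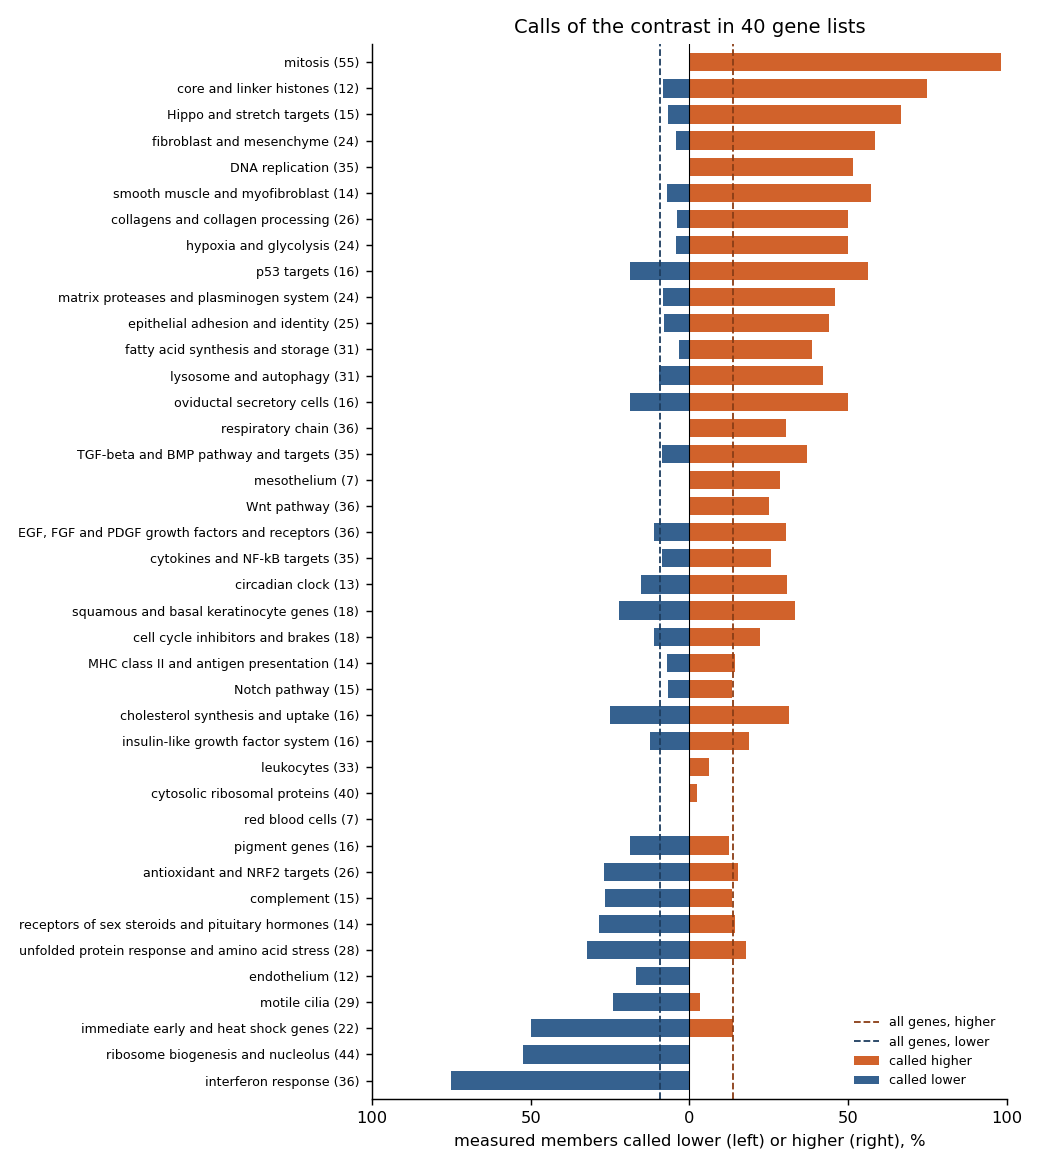
Share of the measured members of 40 gene lists (number in brackets) called higher (orange, right) or lower (blue, left) at the middle times, in percent. Dashed lines give the shares of all 10901 genes, 13.8% higher and 9.18% lower. The mitosis list is at the top, with 54 of 55 members higher, and the interferon response list at the bottom, with 27 of 36 lower.

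Small counts in these lists were not stable. Of 24 counts of 1 or 2 members called higher or lower, 12 moved by over 1.5 times without some single array, and of 12 counts of 0, 7 rose above 0, to 2 at most. Of 44 counts of 3 or more, the 11 that moved by over 1.5 times are given above with their arrays.

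The times joined on each side of the contrast differed from each other. Between 7 and 15 days 717 genes (6.58%) rose and 733 (6.72%) fell, and between 24h and 30 days 2197 (20.2%) rose and 2297 (21.1%) fell. By these counts fewer genes separated the middle times than the end times. The median standard error was 0.093 for the contrast and 0.13 for a difference of 2 times, over all genes.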

How the data were processed

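Expression was measured with 8 Affymetrix arrays, 2 for each of 4 times. The authors deposited 1 table of log2 values per probe set, made with RMA per the submitters' processing notes; the sources used here give no RMA version, filter or genome build. Of 27558 probe sets, 11968 had 1 gene in the platform annotation, 373 had several, 6 had a symbol and an identifier that name different genes, and 15211 were unnamed; 11102 matched RefSeq by identifier. Where several probe sets shared a gene (966 genes), the brightest on average stood for it, which left 10901 genes. limma 3.58.1 in R 4.3.3 fitted 1 mean per time over all 8 arrays (4 residual degrees of freedom), with Benjamini-Hochberg adjustment over all genes and a threshold of 0.05. The scripts were tested on simulated data.

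The text names the 15 largest differences in each direction under the stricter rule, the 5 largest in each direction outside it, and up to 4 called members of each of 40 lists; 3 placeholder symbols were passed over. Genes outside that rule are marked in the text as picked with their values in view. The comparison, its rules and the lists were chosen with earlier results of these data known. Alternatives covered scaling, dim genes, probe sets, the variance model, pooled times, a replicate block, a 2-fold minimum, left-out arrays and curvature contrasts. No 2 arrays held identical values. Sequences were not used here.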

Additional observations from a re-analysis of the deposited data

How the results depend on the processing

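Leaving out 1 array at a time gave 1049 to 1428 genes higher and 589 to 1000 lower by the contrast, and 91 to 158 higher and 3 to 22 lower by the stricter rule. Treating each side as 1 group of 4 arrays gave 88 higher and 6 lower. A 2-fold minimum left 257 higher and 73 lower, and 10 of the 17 lower by the stricter rule. Further quantile normalization gave 27 lower by that rule. Asking for arrays that do not overlap in place of the 4 called differences gave 453 higher and 224 lower. For 169 named genes, 3211 values under 19 alternatives held 2906 with the same call and direction, 302 with the call lost (146 of them with each side as 1 group) and 3 of opposite sign: EDNRB at -0.59 in a curvature contrast over days, and MXD1 at 0.043 and PRLR at -0.49 in one over the logarithm of days. The replicate number as a block gave 1561 higher and 1106 lower, and 174 and 22 by the stricter rule, sharing 163 of the 165 and all 17. Correlations of same-numbered arrays' deviations ran from 0.0157 to 0.263, all above 0 but not all above 0.1. The main fit took the numbers as names only. These correlations cannot tell whether same-numbered arrays share a pool or a batch. Centring arrays on their medians gave 1418 higher and 1044 lower. The cause of these shifts was not tested. With 2 arrays a time, the spread rests on few values.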

Other observations

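The contrast covers part of the changes with time. A moderated F test over the 4 times (limma, Benjamini-Hochberg) called 5048 genes, of which 2613 (51.8%) were not called by the contrast. From 24h to the middle mean and from there to 30 days, 593 genes rose at both steps and 466 fell at both. The contrast called 181 of the first higher and 25 lower, and 43 of the second higher and 90 lower, so a steady change can carry either sign when its steps are unequal.

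The 15211 probe sets with no gene in the annotation were fitted separately. The contrast was called higher in 964 (6.34%) and lower in 815 (5.36%). By the stricter rule 68 were higher at both middle times than at both ends, with contrasts of up to 3.56, and 6 were lower, down to -1.22. What these probe sets measure was not examined here.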
